A study of Mus musculus with 8 samples.

Results

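The variable (V) genes of the T cell receptor were followed in T cells of NIT-1 beta cell grafts. All rows of the count table whose name starts with Trav or Trbv were taken, which gave 163 of 32285 genes: 128 Trav genes, on chromosome 14, and 35 Trbv genes, on chromosome 6. They were counted in the 8830 of 22441 cells that the deposited annotation calls CD4 T cell (4876 cells), CD8 T cell (3449) or Treg (505). Usage is the share of 1 V gene among all Trbv, or all Trav, UMIs of a cell type, where a UMI (unique molecular identifier) marks 1 captured RNA molecule.

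Each alpha-beta T cell carries a receptor made of an alpha and a beta chain. While the cell matures in the thymus, 1 Trav gene is joined to a J segment for the alpha chain and 1 Trbv gene to D and J segments for the beta chain, and all daughters of the cell inherit the joined genes. The V gene encodes the loops that mostly touch the MHC molecule and the start of the loop that touches the peptide, CD8 T cells see peptides on MHC class I and CD4 T cells on MHC class II, and a group of cells with the same V gene may be 1 expanded clone or many unrelated cells.

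The study placed WT and Rnls mutant NIT-1 cells under the skin of opposite flanks of immunodeficient NOD.scid mice, which lack T and B cells of their own. NIT-1 is a beta cell line from a NOD mouse, and Rnls encodes renalase. Splenocytes of recently diabetic NOD mice were injected into a vein 4 days later, and grafts were taken 10 or 17 days after that transfer. Living CD45+ cells were sorted and marked with 1 of 4 hashtag antibodies per graft. All 16 grafts therefore received the same treatment, named syngenic autoreactive splenocytes in the labels, and there were 4 grafts of each genotype (WT, Rnls mutant) at each day. T cells were taken to come from the injected splenocytes, so that Rnls was mutant in the grafted cells and not in the T cells. The ages of the mice, the pooling of spleen donors, whether the mutant line is 1 clone and which hashtags shared a mouse are not given in the sources used here. The 4 grafts of a genotype and day were in 1 library, hence genotype, day and library cannot be told apart. For this experiment the paper names 4 paired replicates, with the WT and the mutant graft of a pair on opposite flanks of 1 mouse. P-values measure the spread between grafts, and the main tests treat the grafts of a mouse as independent.

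A graft held 6596553 to 8085324 UMIs over all its cells in the mutant group and 8075620 to 9050760 in the WT group at day 10, and 1742746 to 7324681 and 2111071 to 9729233 at day 17. Usage per graft was compared only where a graft had at least 10 cells of a type and 50 UMIs of the chain, which kept 8 grafts for CD4 T cells and 8 for CD8 T cells at day 10 and 4 for CD4 T cells at day 17 (mutant grafts 1 and 3, WT grafts 1 and 3). No graft passed for CD8 T cells at day 17 or for Treg. Of 22399 different cell barcodes, 42 occurred in more than 1 library.

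Marker genes went with the labels, but less well in CD8 T cells at day 17. A Foxp3 UMI, the defining factor of regulatory T cells, was present in 50.9% of Treg and 0.267% of CD4 T cells, a Cd4 UMI in 49.3% of CD4 T cells and a Cd8b1 UMI in 65.6% of CD8 T cells, and the insulin genes Ins1 and Ins2 had 0 UMIs in all 3 types. Among the cells called CD8 T cell, those with a Cd4 UMI made up 0.962% to 4.65% per graft at day 10 (median 2.85%) and 4.35% to 50.0% at day 17 (median 13.96%). They were most frequent in graft 3 at day 17, with 29.5% in the mutant and 50.0% in the WT graft. Lyz2, a myeloid gene, had a UMI in 37.3% of CD4 T cells, 33.7% of CD8 T cells and 36.4% of Treg, and its part in the results was not tested. In Treg a Cd4 UMI was present in 32.9% of cells. Ighm, a B cell gene, had a UMI in 41.4% of Treg and 5.09% of CD4 T cells, while Cd79a, also a B cell gene, had one in 0.198% of Treg. The source of the Ighm RNA was not tested.

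The V genes that carried the largest shares or the differences described here are shown by the end of their coding part, the last 60 bases before the junction, in the GRCm38 build, plus strand. The bases are those of the build and were not read from these NOD cells. The capitals mark the codon of the conserved cysteine, after which the junction loop begins. Of the beta chain genes, Trbv12-2 was the most used, Trbv2, Trbv15, Trbv19 and Trbv29 differed between CD4 and CD8 T cells, Trbv16 differed between days and Trbv26 stood out in graft 2:
Trbv2, chr6:41047936-41047995: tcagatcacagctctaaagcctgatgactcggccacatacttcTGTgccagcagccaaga
Trbv12-2, chr6:41119305-41119364: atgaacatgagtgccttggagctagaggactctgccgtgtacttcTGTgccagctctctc
Trbv15, chr6:41141599-41141658: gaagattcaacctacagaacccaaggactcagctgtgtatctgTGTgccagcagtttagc
Trbv16, chr6:41152171-41152230: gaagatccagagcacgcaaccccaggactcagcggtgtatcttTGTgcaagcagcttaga
Trbv19, chr6:41178989-41179048: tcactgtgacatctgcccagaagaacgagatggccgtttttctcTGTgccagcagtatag
Trbv26, chr6:41227934-41227993: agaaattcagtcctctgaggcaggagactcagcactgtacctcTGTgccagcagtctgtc
Trbv29, chr6:41271822-41271881: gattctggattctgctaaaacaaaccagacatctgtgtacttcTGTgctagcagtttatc

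Of the alpha chain genes, Trav5-4 and Trav3-3 differed between CD4 and CD8 T cells and the 2 Trav16 genes were among the most used:
Trav3-3, chr14:53666447-53666506: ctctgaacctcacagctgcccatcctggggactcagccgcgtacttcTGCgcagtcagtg
Trav5-4, chr14:53704455-53704514: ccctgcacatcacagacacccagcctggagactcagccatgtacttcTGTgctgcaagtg
Trav16d-dv11, chr14:53047762-53047821: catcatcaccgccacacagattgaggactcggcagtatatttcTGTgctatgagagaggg
Trav16n, chr14:53351562-53351621: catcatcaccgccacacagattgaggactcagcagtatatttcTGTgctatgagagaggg

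The Trav locus of the mouse holds near-identical copies, so that reads of some genes could be counted for another or not be counted. Which of these happened was not examined. Over 280 aligned coding bases, Trav16n differed from Trav16d-dv11 at 3 bases (98.9% identity), of which 1 lies in the stretch shown, and from Trav16 at 4. Trav5-4 differed from Trav5d-4 and from Trav5n-4 at 6 bases, with 0 in the stretch shown, and neither copy had a UMI. Trav3-3 differed from Trav3d-3 and Trav3n-3 at 4 bases. Beta chain genes of the same number were further apart: Trbv13-2 and Trbv13-3 were identical at 91.4% of bases, Trbv12-1 and Trbv12-2 at 88.9% and Trbv13-1 and Trbv13-2 at 88.2%. Values of single Trav genes are therefore uncertain between copies, and sums over a subgroup (all genes with the same number after Trav) are given beside the differences. Such sums cannot restore reads that were not counted.

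V genes were read in a minority of T cells. A Trbv UMI was found in 27.9% of CD4 T cells (95% exact binomial interval 26.6% to 29.2%), 28.5% of CD8 T cells (27.0% to 30.0%) and 23.6% of Treg (19.9% to 27.5%). The library chemistry reads the 3′ end of transcripts, while the V segment lies near the 5′ end. Intervals cover counting error only. The median depth was 2823.5, 2555 and 2444 UMIs per cell, and with every cell thinned to 1000 UMIs the shares were 10.5%, 12.4% and 8.32%.

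In most other cell types V gene UMIs were close to 0. A Trbv UMI was found in 6 of 7179 macrophages (0.0836%, median depth 4719 UMIs), 7 of 2345 monocytes, 1 of 1104 dendritic cells, 1 of 1515 NK cells (median depth 2411 UMIs) and 0 of 369 granulocytes, which allows a share of up to 0.813% (3 counts of the total). NK cells did hold constant region RNA, with a Trbc1 or Trbc2 UMI in 62.8% of them, but only 0.473 Trbv UMIs per 1000 Trbc UMIs. In CD4 T cells, CD8 T cells and Treg, this ratio was 61.5, 65.7 and 57.9. Cells called Stem-Progenitor were the exception, with a Trbv UMI in 307 of 830 cells (37.0%) at a median depth of 9652 UMIs. They held other T cell RNA as well, with a Trbc1 or Trbc2 UMI in 97.8%, Cd3g in 90.4%, Cd3d in 83.9% and Trac in 74.7% of them. The NK cell gene Ncr1 had a UMI in 20.5%. Their 542 Trbv UMIs are in no comparison between types, days or genotypes.

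The share of cells with a Trbv UMI and the depth both varied across grafts. In CD4 T cells it ranged from 25.0% to 32.1% in mutant and 29.4% to 31.2% in WT grafts at day 10, and from 18.4% to 23.4% in mutant and 19.3% to 55.1% in WT grafts at day 17. The median UMIs per CD4 T cell ranged from 2888.5 to 3202.5, 2598 to 2752, 2169 to 2467 and 3952 to 6466 in the same order. In WT grafts 1 to 4 of day 17, median depths of 4076, 3952, 6466 and 4347 UMIs went with shares of 36.2%, 19.3%, 55.1% and 32.3%. At day 10 the deeper mutant grafts averaged 28.4% against 29.9% in WT grafts. The part of depth in these shares was not tested. Usage, which is a share within the chain, was used for all comparisons between groups of grafts.

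**Figure D1:**
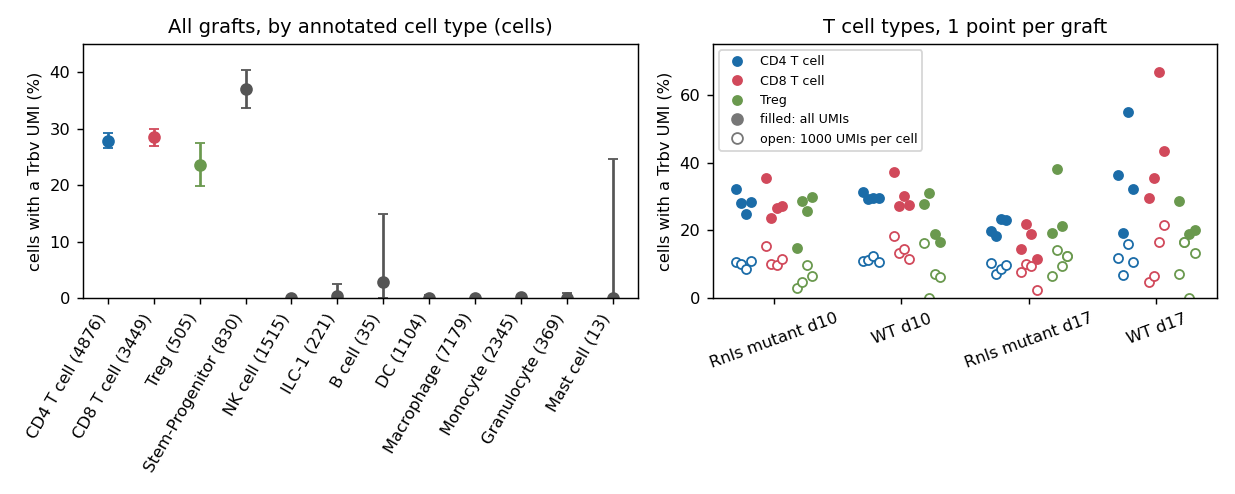
The left plot shows the percent of cells with a Trbv UMI for each annotated cell type over all grafts, with 95% exact binomial intervals, and the right plot shows the same percent per graft for the 3 T cell types by group. T cell types and Stem-Progenitor cells lie between 23.6% and 37.0%, other types near 0, and in CD4 and CD8 T cells the grafts of WT at day 17 spread most, up to 66.7% in CD8 T cells.

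Of the 163 V genes, 92 had a UMI in T cells: 25 of 35 Trbv genes with 3290 UMIs and 67 of 128 Trav genes with 2731 UMIs. The counted UMIs were concentrated on few genes. For Trav, reads of near-identical copies may be missing from the counts, which would raise the shares of the other genes. Trbv12-2 led the beta chain with 409 UMIs (12.4% of the chain), the first 5 genes held 48.1% and the first 10 held 78.2%. Trav5-4 led the alpha chain with 521 UMIs (19.1%), its first 3 genes held 46.6% and its first 10 held 70.9%.

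With each type and graft given equal weight, mean usage was 11.7% for Trbv12-2, 9.43% for Trbv15, 8.64% for Trbv13-2, 8.55% for Trbv19, 7.997% for Trbv2, 7.34% for Trbv20, 5.78% for Trbv29 and 5.63% for Trbv16. For the alpha chain it was 21.3% for Trav5-4, 17.0% for Trav16n, 9.91% for Trav3-3, 6.28% for Trav16d-dv11 and 4.18% for Trav14d-3-dv8. The counted UMIs of the alpha chain were thus led by 2 genes, whereas no Trbv gene reached such a share. By subgroup, Trav16 held 693 UMIs (25.4%) in 3 of its 3 genes, Trav5 held 592 (21.7%) in 2 of its 9 genes and Trav3 held 359 (13.1%) in 3 of its 8 genes.

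V genes annotated as pseudogenes took few UMIs. The annotation is that of the GRCm38 build, and whether it holds for T cells of NOD mice was not tested. Of 13 Trbv pseudogenes, 3 had UMIs, together 61 (1.85%), and 58 of these were Trbv24. Of 20 Trav pseudogenes, 4 had UMIs, together 44 (1.61%). The V genes of 2 T cell kinds with near-invariant alpha chains were rare or unread. The 3 Trav11 genes, the subgroup used by invariant NKT cells, had 0 UMIs in T cells, and Trav1, used by MAIT cells, had 4 UMIs in CD4 T cells, 2 in CD8 T cells and 0 in Treg (0.220% of Trav UMIs).

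How evenly the genes were used was described by the effective number of V genes, the inverse of the summed squared shares, which equals the number of genes if all are used alike. For Trbv at day 10 it ranged from 7.98 to 12.4 over grafts in CD4 T cells (median 11.2) and from 6.91 to 12.0 in CD8 T cells (median 10.5). For Trav it ranged from 5.56 to 14.5 (median 8.42) in CD4 T cells and 7.91 to 11.8 (median 9.58) in CD8 T cells. The ranges of the types overlapped for both chains. Trav values rest on the counted UMIs, in which reads of near-identical copies may be missing. Graft 1 had the lowest Trbv value in each group at day 10, with 7.98 and 9.56 in CD4 T cells and 7.47 and 6.91 in CD8 T cells of the mutant and the WT graft.

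CD4 and CD8 T cells of the same grafts differed in the shares of several V genes. At day 10, Trav5-4, Trbv2 and Trbv15 were used more in CD4 T cells and Trav3-3, Trbv29, Trbv19 and Trbv12-1 more in CD8 T cells. Of 89 V genes compared over 8 grafts, 8 had p at or under 0.05 in the two-sided exact sign-flip permutation test, whose smallest p is 0.0078. These p-values are not adjusted, and chance alone could bring a share of up to 0.05 of the genes to this threshold. They treat the grafts as independent, although by the paper's pairing a WT and a mutant graft share a mouse. Each mouse thus counts more than once, and a test over mice was not made, since the pairs are not given.

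Trav5-4 showed the largest difference. Its usage in CD4 T cells ranged from 16.4% to 38.1% with a median of 22.1%, and in CD8 T cells from 0% to 14.9% with a median of 9.52%. The ranges did not overlap, and usage was lower in CD8 T cells in 8 of 8 grafts, with means of 8.96% ± 5.80 and 24.9% ± 8.24 (SD, n = 8, exact permutation p = 0.0078). The same order held in each library, with 8.50% in CD8 and 26.5% in CD4 T cells of mutant grafts and 9.43% and 23.4% in WT grafts. For the Trav5 subgroup the means were 12.1% in CD8 and 26.7% in CD4 T cells (exact permutation p = 0.0078, n = 8).

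Trav3-3 went the other way, with 7.94% to 21.1% in CD8 and 2.74% to 11.9% in CD4 T cells. It was higher in CD8 T cells of 8 of 8 grafts, with means of 14.2% ± 4.06 and 6.67% ± 2.88 (SD, n = 8, exact permutation p = 0.0078). The ranges overlapped between grafts, and the Trav3 subgroup gave 19.7% against 9.75% (exact permutation p = 0.0156, n = 8). The Trav16 subgroup, the largest, averaged 28.6% in CD8 and 21.6% in CD4 T cells, and this difference did not pass (exact permutation p = 0.141, n = 8).

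Among beta chain genes, Trbv2 was lower in CD8 T cells of 8 of 8 grafts, at 4.15% ± 3.43 against 10.6% ± 2.91 (SD, n = 8, exact permutation p = 0.0078). Trbv15 was also lower in 8 of 8 grafts, at 6.02% ± 4.57 against 13.3% ± 4.92 (SD, n = 8, exact permutation p = 0.0078). For both genes the ranges of the types overlapped across grafts. Trbv31 averaged 1.42% ± 1.05 against 3.65% ± 2.12 and was lower in 6 of 8 grafts (SD, exact permutation p = 0.0313). It no longer passed without mutant graft 1, 3 or 4 or WT graft 1, 2 or 4 (exact permutation p = 0.0625 each).

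The beta chain genes used more in CD8 T cells were each higher in 7 of 8 grafts. Trbv29 averaged 13.7% ± 7.43 in CD8 and 5.62% ± 2.63 in CD4 T cells (SD, n = 8, exact permutation p = 0.0156), with 7.55% to 26.3% and 2.14% to 10.3% per graft. Trbv12-1 averaged 6.01% ± 3.50 and 1.96% ± 2.23 (exact permutation p = 0.0156, n = 8). Trbv19 averaged 11.0% ± 5.24 and 5.57% ± 0.938 (exact permutation p = 0.0234, n = 8). Trbv19 varied little between grafts in CD4 T cells and from 4.20% to 19.5% in CD8 T cells.

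**Figure D2:**
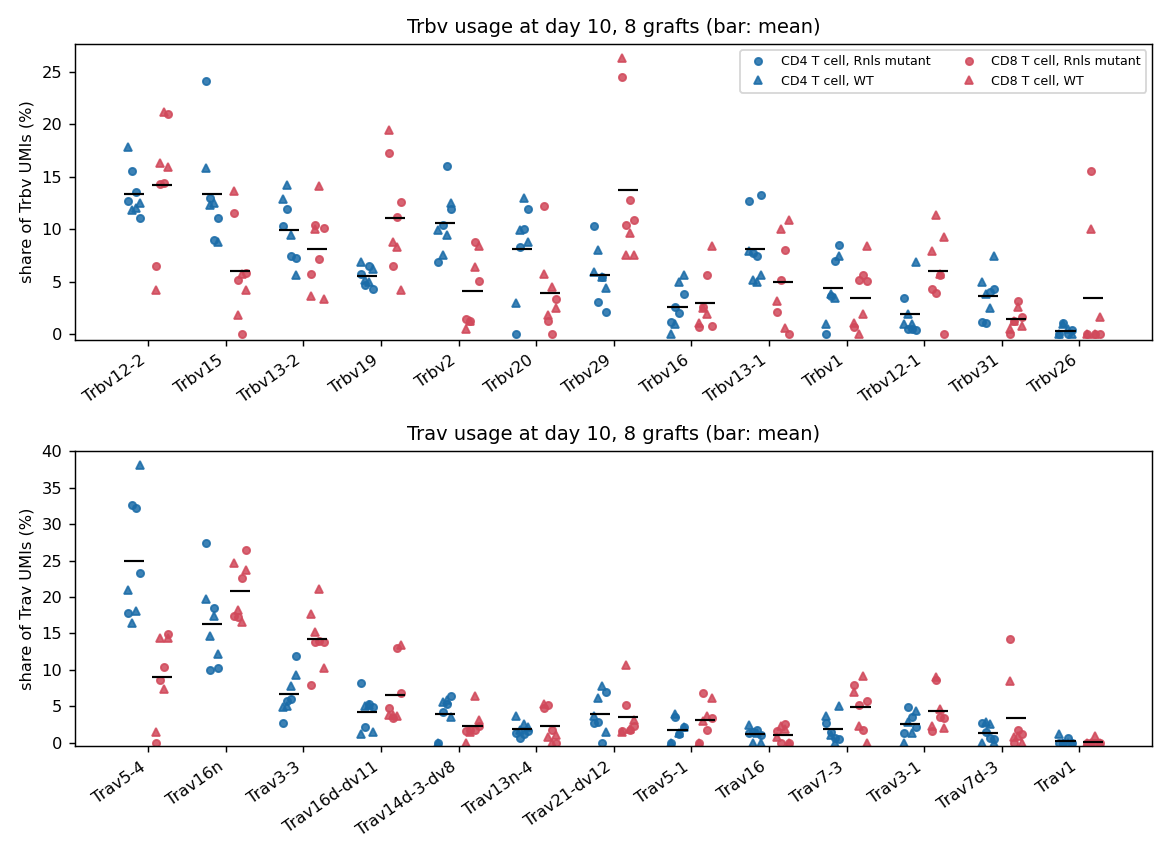
Each point is the usage of a V gene, in percent of the UMIs of its chain, in CD4 or CD8 T cells of 1 of 8 grafts at day 10, and bars are means. Trav5-4 separates the types without overlap (16.4% to 38.1% in CD4, 0% to 14.9% in CD8 T cells), while Trav3-3 and Trbv29 lie higher in CD8 T cells.

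Usage is relative to the other V genes, so levels were also compared among all genes. UMIs were summed per graft and type over both days and tested with edgeR, with the graft as a block. Of 3 V genes with enough counts to be tested, 2 passed at a Benjamini-Hochberg adjusted p of 0.05, beside 30.1% of all tested genes. Trav5-4 was lower in CD8 T cells by a log2 fold change of -1.26 (SE 0.21, edgeR adjusted p = 5.5e-06), and Trav16n was higher by 0.54 (SE 0.18, edgeR adjusted p = 0.0199). Trbv12-2 differed by 0.35 (edgeR adjusted p = 0.192). Trav16n lost the call without mutant graft 4 of day 10 (edgeR adjusted p = 0.0636).

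Without the filter on low counts, 11 of 92 V genes passed, beside 12.5% of all genes. Trbv26 (1.87), Trbv12-1 (1.66), Trbv29 (1.47), Trbv19 (1.03), Trav3-3 (0.96) and Trav16n (0.52) were higher in CD8 T cells on the log2 scale, and Trav5-4 (-1.29), Trbv31 (-1.27), Trbv2 (-1.03), Trbv15 (-0.98) and Trbv20 (-0.80) were lower. With day 10 grafts alone, 5 of 9 V genes passed, beside 32.1% of all genes, namely Trav5-4 (-1.34), Trbv2 (-1.21) and Trbv15 (-0.94) lower and Trbv29 (1.40) and Trav3-3 (1.09) higher. The share of V genes called without the filter was close to that of all genes. Without cells holding a UMI of the other coreceptor, 1 of 3 tested V genes passed, Trav5-4, and the share of all genes is not given here.

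Single grafts had leading V genes of their own, and some of these were shared by the mutant and the WT graft with the same hashtag number at day 10. Graft 1 had, in CD8 T cells, the highest usage of Trbv29 in each genotype, with 24.5% in the mutant and 26.3% in the WT graft against 7.55% to 12.8% in the other 6. Trbv19 was also highest there, with 17.3% and 19.5%, against 4.20% to 12.6% in the others. Trav5-4, at 0% and 1.54%, was lowest there, and Trbv12-2, at 6.47% and 4.21%, was lowest there too.

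Trbv26 marked graft 2. Its usage in CD8 T cells was 15.6% in mutant graft 2 (12 of 77 UMIs, in 6 of 57 cells with a Trbv UMI) and 10.1% in WT graft 2 (16 of 159 UMIs, in 13 of 114 cells). It was at 0% in 5 of the other 6 grafts and 1.68% in WT graft 4. Several cells of each graft held it, in separate barcodes, and nothing in the files tells whether they were 1 clone.

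In CD4 T cells, graft 1 had the highest Trbv15 usage at day 10, with 24.1% in the mutant and 15.8% in the WT graft against 8.75% to 12.95% in the other 6. Other leading genes did not follow the number. Trbv12-2 in CD8 T cells was highest in mutant graft 4 (21.01%) and WT graft 3 (21.2%), and Trav16d-dv11 in mutant graft 3 (13.04%) and WT graft 4 (13.4%). Over the 35 Trbv genes, the correlation of same-numbered mutant and WT grafts, after removing each group's mean, ranged from -0.04 to 0.89 in CD8 and from 0.08 to 0.61 in CD4 T cells. Pairs of different numbers overlapped these ranges, with -0.58 to 0.75 in CD8 and -0.62 to 0.58 in CD4 T cells. Over Trav genes, same-numbered pairs had -0.19 to 0.72 in CD8 and -0.38 to 0.63 in CD4 T cells. Different numbers there had -0.46 to 0.55 and -0.69 to 0.69. Genes share the total of their chain, so the correlations are a description, and they do not show that equal numbers mark the same mouse.

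**Figure D3:**
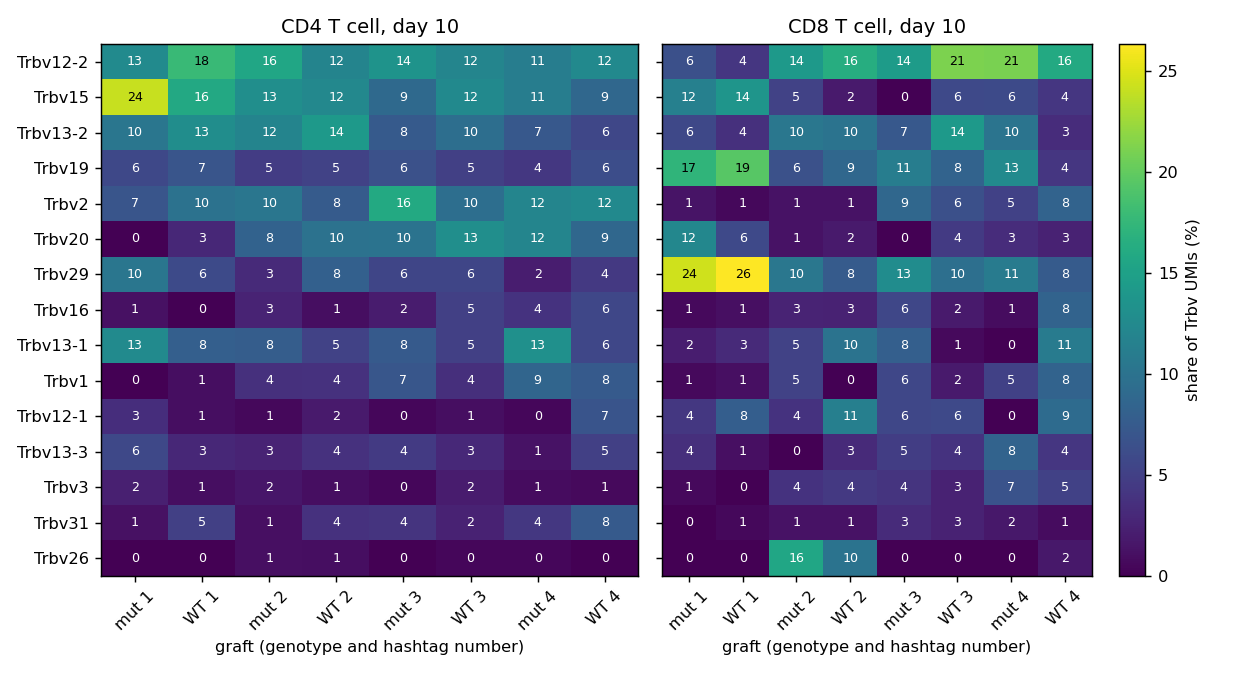
The heat maps show usage, in percent of the UMIs of the chain, of 15 Trbv genes in CD4 and CD8 T cells, with 1 column per graft at day 10 ordered by hashtag number (mut, Rnls mutant). In CD8 T cells the 2 grafts numbered 1 share high Trbv29 (24.5% and 26.3%) and the 2 numbered 2 share Trbv26 (15.6% and 10.1%).

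In the grafts compared, CD4 T cells at day 17 used on average Trbv16 and Trbv3 more and Trbv29 and Trbv12-2 less than at day 10. Of 90 V genes compared between 4 grafts of day 17 and 8 of day 10, 8 had p at or under 0.05 in a two-sided exact permutation test over grafts, not adjusted. At this threshold chance alone could bring a share of up to 0.05 of the genes to a pass. Grafts that share a mouse were treated as independent here too. Each day was in libraries of its own. Usage values at day 17 are given for mutant grafts 1 and 3 and then WT grafts 1 and 3.

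Trbv16 usage at day 17 was 10.7%, 18.5%, 14.5% and 3.17%, and at day 10 it ranged from 0% to 5.62% with a median of 2.30%. Of the day 17 grafts, 3 lay above all day 10 grafts and WT graft 3 lay within them, with means of 11.7% ± 6.53 (SD, n = 4) and 2.64% ± 2.01 (SD, n = 8, exact permutation p = 0.0162). The means within genotype were 14.6% at day 17 and 2.40% at day 10 in mutant grafts, and 8.83% and 2.89% in WT grafts. Trbv3 averaged 4.05% and 1.22% (exact permutation p = 0.0121).

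Trbv29 usage at day 17 was 1.94%, 1.85%, 1.38% and 0%, below the lowest graft of day 10, where it ranged from 2.14% to 10.3% (means 1.29% ± 0.897 and 5.62% ± 2.63, exact permutation p = 0.00404). The days did not overlap for this gene. Trbv12-2 usage at day 17 was 12.6%, 7.41%, 6.90% and 3.17%, against 11.1% to 17.8% at day 10 (means 7.52% ± 3.89 and 13.4% ± 2.24, exact permutation p = 0.0202). Here mutant graft 1 lay within the day 10 range and the other 3 below it. Trbv24, annotated as a pseudogene, averaged 0.345% at day 17 and 1.35% at day 10 (exact permutation p = 0.0242). Trbv12-2 no longer passed without mutant graft 3, WT graft 1 or WT graft 3 of day 17 (exact permutation p = 0.0606 each), nor Trbv24 without mutant graft 1, mutant graft 3 or WT graft 3 (0.0727 each).

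Of the alpha chain, Trav16d-dv11 usage at day 17 was 5.06%, 17.5%, 10.5% and 12.1%, and its mean was 11.3% ± 5.10 against 4.19% ± 2.40 at day 10 (exact permutation p = 0.0202). The sum over the near-identical Trav16 genes averaged 34.0% and 21.6%, a difference that did not pass (exact permutation p = 0.113). Trav8d-2 usage was 7.59%, 0%, 6.02% and 1.52%, and at day 10 it was above 0 in 1 of 8 grafts, at 1.13% (exact permutation p = 0.0364). Both grafts numbered 1 thus had high Trav8d-2, while the Trav8 subgroup averaged 8.64% and 3.04%, a difference that did not pass (exact permutation p = 0.105). Trav13-1 had 0 UMIs in the 4 grafts of day 17 that passed the minimum and averaged 1.43% at day 10 (exact permutation p = 0.0202). Over all grafts of day 17 it had 3 of 479 Trav UMIs, all in grafts below the minimum. The Trav13 subgroup averaged 2.52% and 4.72% (exact permutation p = 0.0202). Of the other subgroups, Trav3 averaged 5.34% and 9.75% (exact permutation p = 0.0323) and Trav7 averaged 2.35% and 5.90% (exact permutation p = 0.0364), both lower at day 17.

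Trav16d-dv11 no longer passed without mutant graft 3, WT graft 1 or WT graft 3 (exact permutation p = 0.0606 each), nor Trav8d-2 without mutant graft 1, WT graft 1 or WT graft 3 (0.109 each).

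Graft 3 at day 17 was led by other genes. Trbv15 usage in its CD4 T cells was 20.4% in the mutant and 33.3% in the WT graft (21 of 63 UMIs, in 9 cells), against 6.80% and 11.7% in the grafts numbered 1. Trbv15 at day 10 ranged from 8.75% to 24.1%, so the days overlapped. Trav16n usage was 33.3% and 24.2% in the grafts numbered 3, and 12.7% and 14.3% in those numbered 1.

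**Figure D4:**
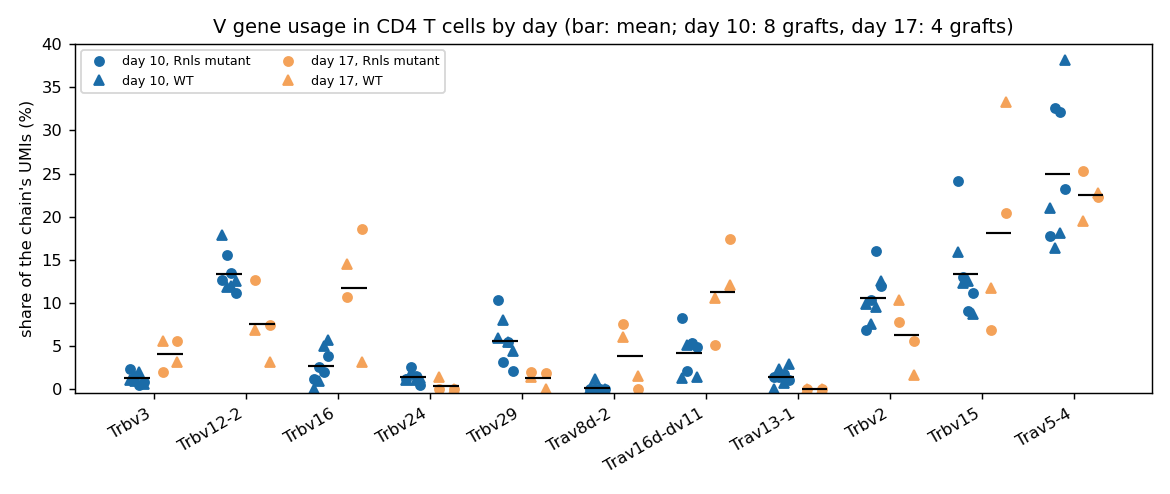
Each point is the usage of a V gene in CD4 T cells of 1 graft, in percent of the UMIs of its chain, for 8 grafts at day 10 and 4 at day 17, with bars at the means. Trbv29 at day 17 (0% to 1.94%) lies below every day 10 graft, and Trbv16 lies above them in 3 of 4 grafts.

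Among all genes in CD4 T cells, 10 V genes had enough counts for the edgeR test between days, and 2 passed, both lower at day 17, beside 36.6% of all tested genes. Trbv12-2 was lower by a log2 fold change of -0.92 (SE 0.21, edgeR adjusted p = 0.0015) and Trbv2 by -0.93 (SE 0.30, edgeR adjusted p = 0.0180). Without the filter on low counts, 9 of 91 passed, beside 17.1% of all genes, with Trav8d-2 (3.37), Trav10d (2.83), Trbv16 (1.38) and Trav16d-dv11 (1.06) higher and Trav6d-4 (-3.60), Trbv14 (-2.68), Trbv29 (-2.17), Trbv12-2 (-0.996) and Trbv2 (-0.997) lower on the log2 scale. Both shares of V genes lie below those of all genes, and the test of that difference was not made. Within mutant grafts Trbv12-2 did not pass (-0.41, edgeR adjusted p = 0.331) and Trbv2 had too few counts to be tested. Within WT grafts Trbv12-2 passed (-1.44, edgeR adjusted p = 0.0107) and Trbv2 did not (-1.002, edgeR adjusted p = 0.153). Without WT graft 1 of day 17, Trbv2 in all grafts was at -1.59 (edgeR adjusted p = 0.00271).

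The amount of macrophage marker RNA in the same cells differed between the groups of grafts. Summed over 5 macrophage markers, CD4 T cells held 67.2 to 105 CPM (UMIs scaled to the same total per graft and type) in mutant and 159 to 189 in WT grafts at day 10, and 757 to 934 in mutant and 206 to 310 in WT grafts at day 17. The source of this RNA and its part in the levels were not tested, and usage does not rest on the total of all genes.

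For CD8 T cells, no graft of day 17 had enough V gene UMIs for usage per graft, and pooled values are given. Trbv16 held 14.1% of 184 Trbv UMIs at day 17 (exact binomial interval 9.44% to 20.0%) and 2.77% at day 10. The interval treats UMIs as independent and leaves out the spread between grafts. Of 20 cells with a Trbv16 UMI at day 17, 9 had a Cd4 UMI and 7 a Cd8a or Cd8b1 UMI. The largest number came from mutant graft 3, with 11 of 23 Trbv UMIs in 9 cells, of which 5 had a Cd4 and 1 a Cd8 UMI. Without cells holding a Cd4 UMI, Trbv16 was 15 of 152 Trbv UMIs (9.87%) over all grafts of day 17 and 28 of 1053 (2.66%) at day 10. By graft at day 17 it was then 15.4%, 3.33%, 31.3% (5 of 16 UMIs) and 0% in mutant grafts 1 to 4 and 9.68%, 11.8%, 0% and 0% in WT grafts 1 to 4.

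By edgeR, 0 of 6 V genes tested in CD8 T cells passed between days, beside 21.4% of all genes, with 1 at an unadjusted p under 0.05. DESeq2 called 1 of 79, Trbv16, at a log2 fold change of 1.87, under a scaling that also raised the median of all genes. The share of all genes that DESeq2 called is not given here. Without the filter, edgeR called 3 of 79, beside 9.63% of all genes, with Trbv16 (1.74) higher and Trbv29 (-1.41) and Trav3-1 (-4.47) lower. In Treg 0 V genes had enough counts for the test, in which 15.7% of all genes passed. The macrophage markers summed to 78.9 to 97.5, 169 to 222, 754 to 1043 and 210 to 424 CPM in CD8 T cells of the mutant and WT groups at day 10 and then day 17.

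Few V genes had p at or under 0.05 for usage between T cells of Rnls mutant and WT grafts, with 4 grafts a group. At day 10, 2 of 86 V genes in CD4 T cells and 1 of 74 in CD8 T cells had the smallest p that 4 against 4 grafts allow in the exact permutation test, 0.0286, not adjusted. In CD4 T cells these were Trav13n-4, at a mean of 1.22% in mutant and 2.53% in WT grafts, and Trav14-1, at 0% and 1.07%. Their subgroups did not differ by this test, with 4.71% and 4.73% for Trav13 (exact permutation p = 1) and 5.44% and 5.30% for Trav14 (exact permutation p = 0.971). For CD8 T cells it was Trbv12-1, at 4.32%, 3.90%, 5.60% and 0% in mutant grafts and 7.89%, 11.3%, 5.77% and 9.24% in WT grafts. Its values did not overlap, although mutant graft 3 and WT graft 3 were close. None of these 3 could pass with any graft left out, since 3 against 4 grafts allow no exact permutation p under 0.0571. With 4 against 4 grafts, chance alone could bring a share of up to 0.0286 of the genes to the smallest p. The counts above are therefore not read as a genotype difference in usage.

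At the level of expression, edgeR called 0 of 10 V genes between genotypes in CD4 T cells at day 10, beside 0.229% of all genes, and 0 of 10 at day 17, beside 0.433%, with 0 at an unadjusted p under 0.05 at each day. For CD8 T cells it called 0 of 6 at day 10, beside 0.314%, and 0 of 6 at day 17, beside 0.376%, with 1 at an unadjusted p under 0.05 at each day. These were Trav3-3 at day 10, lower in mutant grafts (log2 fold change -0.84, edgeR adjusted p = 0.456), and Trbv12-2 at day 17 (-1.62, edgeR adjusted p = 0.583). DESeq2 called 0 in each of these comparisons. Without the filter, edgeR called 1 of 79 in CD8 T cells at day 10, Trbv12-1 (-1.65, edgeR adjusted p = 0.0369), beside 0.469% of all genes.

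No V gene passed the test of whether the genotype difference changed between days. The interaction gave 0 of 10 in CD4 T cells, beside 0.636% of all genes, and 0 of 6 in CD8 T cells, beside 0.658%. By DESeq2 there were 0 as well. At an unadjusted edgeR p under 0.05 there was 1 in CD4 T cells, Trbv12-2 (1.01, edgeR adjusted p = 0.557), and 0 in CD8 T cells. In Treg 0 V genes were tested, where 0.172% of all genes passed for genotype at day 10, 0.0429% at day 17 and 1.12% for the interaction.

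Treg held few V gene UMIs and are described by pooled shares. At day 10 the most used genes were Trav5-4, with 33.7% of 101 Trav UMIs (exact binomial interval 24.6% to 43.8%), and Trbv19, with 16.5% of 109 Trbv UMIs (10.1% to 24.8%), followed by Trbv2 with 15.6%. These intervals treat UMIs as independent and leave out the spread between grafts, so that of Trav5-4 is no test against the CD4 T cell mean of 24.9%. At day 17 Trav5-4 held 23.6% of 55 Trav UMIs (13.2% to 37.0%), and Trbv26 held 6 of 43 Trbv UMIs (13.95%, 5.30% to 27.9%). Between Treg and CD4 T cells 0 V genes had enough counts for the edgeR test, in which 40.8% of all genes passed. Without the filter 3 of 91 passed, beside 16.5% of all genes, all lower in Treg: Trbv13-2 (-1.60), Trbv15 (-1.40) and Trbv12-2 (-1.12).

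Cells in which both chains were read show which V genes occurred together. There were 216 such CD4 T cells at day 10 with 129 different combinations of 1 Trbv and 1 Trav gene, and 87 with 68 at day 17. CD8 T cells gave 161 with 97 and 36 with 31, and Treg gave 8 and 7 cells. Most combinations were thus seen once or a few times.

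The combinations were counted over both grafts of a hashtag number together. Those seen in 5 or 6 T cells were in the mutant as well as the WT graft. A count of that size over both grafts would mostly fall in each of them by chance. Grafts of different numbers were not counted together, so nothing about sharing by number follows. In CD8 T cells of grafts numbered 1 at day 10, Trbv19 with Trav7d-3 occurred in 2 mutant and 4 WT cells, Trbv19 with Trav16n in 2 and 3 and Trbv19 with Trav3-3 in 1 and 4. In CD4 T cells, Trbv20 with Trav5-4 occurred in 3 and 3 cells of grafts numbered 4 at day 10, and Trbv16 with Trav16n in 3 and 2 cells of grafts numbered 3 at day 17, and Trbv2 with Trav5-4 in 3 and 2 cells of grafts numbered 2 at day 10. Of 8 combinations seen in 4 cells, 3 were in a single graft: Trbv12-2 with Trav3-3 in WT graft 3, Trbv29 with Trav16n in mutant graft 4 and Trbv29 with Trav7-3 in WT graft 1, all in CD8 T cells of day 10. These counts are too small for a comparison, and equal V genes do not show equal junctions, which were not read here. Trav5-4 was paired with many Trbv genes: it was in 68 of 303 such CD4 T cells (22.4%) with 14 different Trbv genes, 18 of 197 CD8 T cells (9.14%) with 11, and 6 of 15 Treg with 4.

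Doublets were not called, and cells with more than 1 Trbv gene were counted instead. Among cells with a Trbv UMI, they were 101 of 1360 CD4 T cells (7.43%), 80 of 982 CD8 T cells (8.15%) and 4 of 119 Treg (3.36%), with a median depth of 4058 UMIs in CD4 T cells with more than 1 and 3239 in those with 1. When these cells were left out, Trbv12-1 was the only one of the 8 genes that differed between CD4 and CD8 T cells to lose its call (exact permutation p = 0.0547).

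The partners of the receptor were measured with a list of 22 genes for the constant regions, CD3 chains, coreceptors, the kinases and adaptors that pass on the signal, and the enzymes of V gene joining, and this list was fitted with edgeR only. Between days in CD4 T cells, 14 were tested, of which 4 were higher and 1 lower at day 17, beside 36.6% of all genes, among them Cd4 (0.47), Cd247 (0.30) and Lck (0.21) higher and Lat (-0.23) lower on the log2 scale, all at an edgeR adjusted p under 0.05. The median of the list was -0.08, beside 0.01 for all genes. In CD8 T cells, Cd4 (2.75, SE 0.32, edgeR adjusted p = 3.5e-07), Zap70 (0.55), Cd247 (0.38) and Trac (0.28) were higher and Cd8b1 (-0.41) and Trbc2 (-0.23) lower at day 17, 6 of 14 beside 21.4% of all genes. The medians there were 0.05 for the list and 0.01 for all genes. In Treg, Cd247 (0.74), the CD3 zeta chain, was the only one of 11 called, beside 15.7% of all genes.

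Between genotypes edgeR called 0 of 14 genes of the list at each day in CD4 and in CD8 T cells, with 1 and 3 at an unadjusted p under 0.05 in CD4 and 1 and 6 in CD8 T cells at day 10 and day 17, and 0 of 11 in Treg, with 0 and 1. The difference between days passed for Cd3e in CD8 T cells (0.60, edgeR adjusted p = 0.0461). Between types, 4 of 14 were higher and 4 lower in CD8 than in CD4 T cells, beside 30.1% of all genes called, with Cd8b1 (4.51) and Cd8a (4.23) higher and Cd4 (-2.99) lower on the log2 scale, genes that mark the types themselves. Of the others, Trbc1 (0.26) and Cd3e (0.14) were higher and Zap70 (-0.44), Lat (-0.22) and Cd3g (-0.17) lower. In Treg, beside 40.8% of all genes called, 1 of 12 was higher than in CD4 T cells, Cd3e (0.20), and 5 were lower, among them Cd4 (-0.86) and Trbc2 (-0.39).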

How the data were processed

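Immune cells of 16 grafts were measured with the 10x Genomics 3′ v3.1 chemistry and hashtag antibodies. The deposited values are UMI counts, made by the authors and not normalized, with a table of each cell's library, hashtag and type. The submitters' processing notes name Cell Ranger and mm10, without a version, and the hashtag assignment and cell filters are not given in the sources used here. Deposited cell types were used as they stand, and the hashtag libraries were not used.

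V genes were all rows named Trav or Trbv. The members, lists and tests were chosen with earlier results of these data known. UMIs were summed per graft and type for types with at least 10 cells in a graft, and tested over all genes with edgeR 4.0.16 (filterByExpr, TMM, glmQLFit, glmQLFTest; R 4.3.3) with genotype and day as groups, or with the graft as a block between types. Calls had a Benjamini-Hochberg adjusted p under 0.05. Usage was compared over grafts with exact permutation tests (SciPy 1.17.1), and zero counts were given a limit of 3 counts. Named were the 10 most used genes of each chain, genes that led a graft at more than 3 times the median of the others, and genes past a test, while the pseudogenes, copies, combinations and graft patterns were named after their values were seen. Alternatives were DESeq2 1.42.0, no filter on low counts, other minimums, shares of cells, joined Trav subgroups, cells with 1 Trbv gene, the hashtag number as a block and each graft left out in turn. Fits within genotype, of day 10 alone and without cells holding the other coreceptor were added after seeing the data. The model was tested on simulated data. Sequences and positions were read from GENCODE transcripts and gene models (GRCm38). A gene of the receptor list is not reported here.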

Additional observations from a re-analysis of the deposited data

Results flagged for a closer look

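In 104 groups of 4 grafts, the highest or lowest graft was compared with the gap to the others (Dixon's criterion), which chance alone would pass in about 1 in 20 groups. A graft stood apart in 9 groups. In CD8 T cells at day 10, Trbv26 usage was 15.6% in mutant graft 2, with 0% in the other 3, and 10.1% in WT graft 2, with 0% to 1.68% in the others. Trbv29 usage was 26.3% in WT graft 1, with 7.55% to 9.62% in the others. Trav3-3 was 7.94% in mutant graft 1, with 13.8% to 13.9% in the others, and Trbv1 was 0.719% there, with 5.04% to 5.60%. Trav16d-dv11 was 13.4% in WT graft 4, with 3.67% to 3.85% in the others.

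In CD4 T cells at day 10, Trbv12-2 usage was 17.8% in WT graft 1, with 11.8% to 12.5% in the others. The effective number of Trbv genes was 7.98 in mutant graft 1, with 11.0 to 11.3 in the others, and 9.56 in WT graft 1, with 11.9 to 12.4. Of these 9 values, 6 were of grafts numbered 1, 2 of grafts numbered 2 and 1 of a graft numbered 4. Mutant graft 1 and WT graft 1 each gave several of them, and values within a chain share their total.

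Cells called Stem-Progenitor, used in no comparison, held a Trbv UMI in 37.0% of cells, against 0.0836% of macrophages. Their 542 Trbv UMIs were led by Trbv15 (14.6%), Trbv13-2 (11.8%) and Trbv19 (11.4%). A Trbv UMI was present in 271 of 751 of these cells at day 10 and 36 of 79 at day 17. With every cell thinned to 1000 UMIs the share was 6.39%, below the 10.5% of CD4 T cells.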

How the results depend on the processing

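No result changed its direction. Of 111 main values under alternatives other than left-out grafts, 87 stayed within the limit used and 24 moved. V genes called between days numbered 9 in CD4 and 3 in CD8 T cells without the filter on low counts (more genes tested), 4 and 1 with DESeq2, and in CD4 T cells 0 in mutant grafts alone and 1 in WT grafts alone. Between CD8 and CD4 T cells they numbered 11 without the filter, 8 with DESeq2, 5 with day 10 grafts alone, 1 without cells holding the other coreceptor and 1 without the graft as replicate block. Without the filter, 1 passed between genotypes in CD8 T cells at day 10 and 3 between Treg and CD4 T cells. Genes at an unadjusted exact permutation p of at most 0.05 in usage fell to 2 (CD8 against CD4) and 0 (days, and genotypes in each type) when a graft needed 100 UMIs of the chain, which left fewer grafts. For genotype they were 1 in CD4 and 0 in CD8 T cells by shares of cells, 0 in CD4 T cells with Trav subgroups joined and 0 in CD8 T cells without cells holding the other coreceptor. Cells thinned to 1000 UMIs gave 10.5%, 12.4% and 8.32% with a Trbv UMI. The cause was not tested where none is named. Counts with DESeq2, within genotype, without the other coreceptor and without the block stand without the share of all genes called.

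Leaving out each graft gave 2 to 5 V genes called between days in CD4 T cells (5 without mutant graft 1 of day 10 or mutant graft 2 of day 17, 4 without WT graft 4 of day 17). It gave 0 to 2 in CD8 T cells (2 without mutant graft 2 of day 17, 1 without mutant graft 1 or 4 or WT graft 2 or 4 of day 17) and 1 to 3 between CD8 and CD4 T cells (1 without mutant graft 4 of day 10). In usage it gave 7 to 10 between types, 6 to 9 between days and 0 to 0 between genotypes, where 3 against 4 grafts cannot reach the threshold. Of single genes, 43 of 248 values lost their call without a graft and 28 of 112 under other alternatives. Trav16n between types was lost with DESeq2 (adjusted p = 0.0576), without the other coreceptor (0.0523), with day 10 alone (0.0706) and without the block (0.118).

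No source used here says that equal hashtag numbers mark the same mouse, and not every pair of same-numbered mutant and WT grafts correlated above 0.1 over all genes. The range was -0.04 to 0.34 in CD4 and 0.01 to 0.33 in CD8 T cells at day 10, and 0.04 to 0.18 and 0.01 to 0.07 at day 17. Most like their own number were 2 mutant and 2 WT grafts of 4 in CD4 and 2 and 1 in CD8 T cells at day 10, and 3 and 4 and 3 and 3 at day 17, a hint that leaves the pairing unknown. With the number as replicate block, 0 V genes passed between genotypes, as without it, while all genes called at day 10 rose from 18 to 45 in CD4 and from 20 to 65 in CD8 T cells. DESeq2's scaling moved the median of all genes to 0.28 between days in CD4, 0.37 in CD8 T cells and 0.21 between types on the log2 scale. Depth limits Treg and day 17 CD8 T cells most, where no graft reached 50 UMIs of a chain.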

Other observations

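Trbv16 with Trav16n, the combination seen in CD4 T cells of grafts numbered 3 at day 17, was also read in 3 cells of those grafts called CD8 T cell. All 3 held a Cd4 UMI and 0 held a Cd8a or Cd8b1 UMI.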
